A study of Mus musculus with 4 samples.

Results

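The regulators described here are 8 genes that act in or on the nuclear factor kappa B (NF-kB) pathway and that are known as targets of interleukin-17A (IL-17A) or of NF-kB: Zc3h12a, Nfkbiz, Nfkbia, Tnfaip2, Tnfaip3, Tifa, Bcl3 and Map3k8. They were taken by gene symbol, and all 8 were found among the 13102 genes of the RNA-seq tables. The RNA came from primary epidermal keratinocytes of neonatal C57BL/6 mice, grown for 48 h. The series has 4 groups of 1 library each. These are untreated wild-type (WT) cells, WT cells given IL-17A at 100 ng/mL for 8 h (treated WT, or IL-17A WT in plots), and cells of Il17rc knockout (KO) and of Il17rd KO mice given the same IL-17A dose for the same time. Il17rc and Il17rd encode chains of the IL-17 receptor family, and the series asks how far each contributes to the response of keratinocytes to IL-17A. The sources used here do not give the knockout alleles, the sex of the mice or how many mice were pooled. Untreated KO cells were not analysed here, so an effect of genotype without the cytokine cannot be told apart from an effect on the response to it.

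NF-kB is a family of transcription factor dimers held in the cytoplasm by inhibitor proteins of the IkB family. When a receptor is engaged, adaptors and kinases mark the inhibitor for destruction, NF-kB enters the nucleus, and among the genes it switches on are its own brakes, so that the signal is limited in time. IL-17A is a weak activator of NF-kB by itself. It is known for acting through the IkB protein IkB-zeta and by prolonging the life of short-lived inflammatory messenger RNAs, and in the epidermis it drives neutrophil-attracting chemokines and antimicrobial proteins. The 8 genes act at several steps. Nfkbia (IkB-alpha), Nfkbiz (IkB-zeta) and Bcl3 encode IkB proteins, the first an inhibitor in the cytoplasm and the other two nuclear cofactors. Tnfaip3 (A20), which edits ubiquitin chains, and Zc3h12a (Regnase-1), a ribonuclease that cuts inflammatory messenger RNAs, are negative regulators. Tifa, an adaptor that joins TRAF proteins, and Map3k8 (TPL2 or COT), a kinase that activates MEK and ERK, pass signals on, and Tnfaip2, a relative of the exocyst protein Exoc3, is an inducible gene of less settled function.

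A library's level of a gene is given as its read count and as CPM, the count set against the size of the library after scaling by the trimmed mean of M values (TMM). Total counts ran from 19711866 to 19904695. Each group is 1 library, so nothing here could be tested over replicates and no p-values are given. A gene is called higher or lower here when 2 libraries differed by at least 2-fold and the exact 95% counting interval of their ratio excluded 1. The genes tested were the 12934 whose mean reached 1 CPM, and all 8 regulators passed that filter. The interval follows each fold in parentheses. It covers counting error only, so a call describes a pair of libraries and not the conditions. The targeted genes were lowest in the matching libraries. Il17rd had 5 counts in Il17rd KO cells against 150 to 265 in the others. Il17rc had 439 counts in Il17rc KO cells against 1152 to 2729 elsewhere, so transcript of that gene was still counted there, and the deleted part is not named. The libraries also differed in sex-linked transcripts. The Y-linked Ddx3y had 2 counts in Il17rd KO cells and 233 to 749 in the others, so sex cannot be told apart from group. The keratin genes Krt5 and Krt14, which define basal keratinocytes, had at least 195461 counts in every library. Of the 6 basal markers listed, Col17a1 alone was called, lower with IL-17A in WT cells and in Il17rc KO against untreated WT.

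Positions are on GRCm38 (mm10), as annotated by GENCODE M21. Zc3h12a lies on chromosome 4 (125118423 to 125127840, minus strand), Nfkbiz on chromosome 16 (55811375 to 55838899, minus), Tnfaip3 on chromosome 10 (19000910 to 19015657, minus) and Tifa on chromosome 3 (127789805 to 127832164, plus). Nfkbia (55489410 to 55492647, minus) and Tnfaip2 (111442469 to 111455018, plus) are both on chromosome 12, and Bcl3 is on chromosome 7 (19808462 to 19822770, minus). All 8 code for proteins. None matched another annotated gene at 95% identity over 50% of the shorter transcript. Tifa, Tnfaip2 and Bcl3 overlap genes on the other strand, and the sources used here do not say whether the counting used strand. Of these neighbours only Ap1ar, opposite Tifa, has a row of its own. Over protein-coding transcripts only, it shares 0 of the 3009 exonic bases of Tifa. It had 1050 to 1174 counts, a range that does not follow the counts of Tifa.

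Promoter sequences from RefSeq (GRCm38.p6) were matched by symbol for 6 of the 8 genes, and the 250 bases before each start site were searched on both strands for the NF-kB consensus motif, 10 bases long. It was present in 7.25% of all 32851 promoters in that collection. Among the 6 genes it was found before the start of Nfkbia, Tnfaip3 and Tnfaip2 and in no listed window of Zc3h12a, Tifa or Bcl3. The 130 bases before the start are shown for the 3 genes with a match, because these 3 genes have different profiles over the libraries. Starts are those of the promoter collection. For Tnfaip3 (19015410) and Tnfaip2 (111442661) they lie inside the gene as GENCODE M21 places it. The bases shown for Tnfaip3 and Tnfaip2 thus fall within the annotated gene. Bases are 5′ to 3′ on the gene's own strand, and capitals mark the motif.
Nfkbia, chr12:55492648-55492777, minus strand: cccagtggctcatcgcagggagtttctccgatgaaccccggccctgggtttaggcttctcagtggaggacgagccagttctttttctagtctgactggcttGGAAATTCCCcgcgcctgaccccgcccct
Tnfaip3, chr10:19015411-19015540, minus strand: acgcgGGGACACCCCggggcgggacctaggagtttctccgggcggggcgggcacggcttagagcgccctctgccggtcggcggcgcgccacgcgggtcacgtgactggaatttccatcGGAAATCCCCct
Tnfaip2, chr12:111442531-111442660, plus strand: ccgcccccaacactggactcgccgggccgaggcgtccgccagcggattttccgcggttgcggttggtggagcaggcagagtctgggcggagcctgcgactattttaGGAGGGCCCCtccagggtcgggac
The Nfkbia match lies 20 to 29 bases before the start. Tnfaip3 had matches 3 to 12 and 116 to 125 bases before the start shown and 0 in its other listed promoter, and Tnfaip2 had its match 15 to 24 bases before. A match is a description of the letters and does not show that a factor binds there.

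The clearest pattern joined Zc3h12a, Nfkbiz and Tnfaip2. All 3 were called higher in treated WT than in untreated WT, all 3 were called lower in Il17rc KO cells than in treated WT, and none was called in Il17rd KO cells against treated WT. Xist was likewise higher, and Ddx3y lower, in treated WT and Il17rd KO than in untreated WT and Il17rc KO. The part of sex in this pattern was not tested. Counts of Zc3h12a were 1095 in untreated WT, 3322 in treated WT, 646 in Il17rc KO and 3274 in Il17rd KO, or 57.1, 169.7, 32.2 and 159 CPM. The WT and Il17rd KO libraries given IL-17A thus stand together at the top, and the Il17rc KO library lies below even the untreated one. Zc3h12a was 2.97-fold higher (2.77 to 3.18) with IL-17A in WT cells, 5.27-fold lower (4.84 to 5.74) in Il17rc KO cells than in treated WT, and 1.06-fold lower (1.01 to 1.12) in Il17rd KO cells. Against untreated WT, the Il17rc KO library was 1.77-fold lower (1.61 to 1.96), which is under the size called.

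Nfkbiz, the IkB-zeta gene, had 1257, 4338, 1659 and 4209 counts in the same order, or 65.6, 221.7, 82.7 and 204.9 CPM. It too was high in the WT and Il17rd KO libraries given IL-17A and low in the other two, with the Il17rc KO library a little above untreated WT. The fold was 3.38 (3.17 to 3.60) for IL-17A in WT cells. It was 2.68-fold lower (2.53 to 2.84) in Il17rc KO cells than in treated WT and 1.08-fold lower (1.04 to 1.13) in Il17rd KO cells. Il17rc KO cells stood 1.26-fold above untreated WT (1.17 to 1.36) and Il17rd KO cells 3.13-fold (2.93 to 3.33).

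Tnfaip2 was the least abundant of the 3, with 275, 914, 192 and 633 counts, or 14.3, 46.7, 9.57 and 30.8 CPM. Here the Il17rd KO library lay between untreated WT and treated WT. Tnfaip2 was 3.26-fold higher (2.84 to 3.74) with IL-17A in WT cells and 4.88-fold lower (4.17 to 5.73) in Il17rc KO cells than in treated WT. In the Il17rd KO library it was 1.52-fold lower (1.37 to 1.68) than in treated WT and 2.15-fold higher (1.86 to 2.48) than in untreated WT. Its Il17rc KO level, like that of Zc3h12a, was below untreated WT, by 1.5-fold (1.24 to 1.81).

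**Figure D1:**
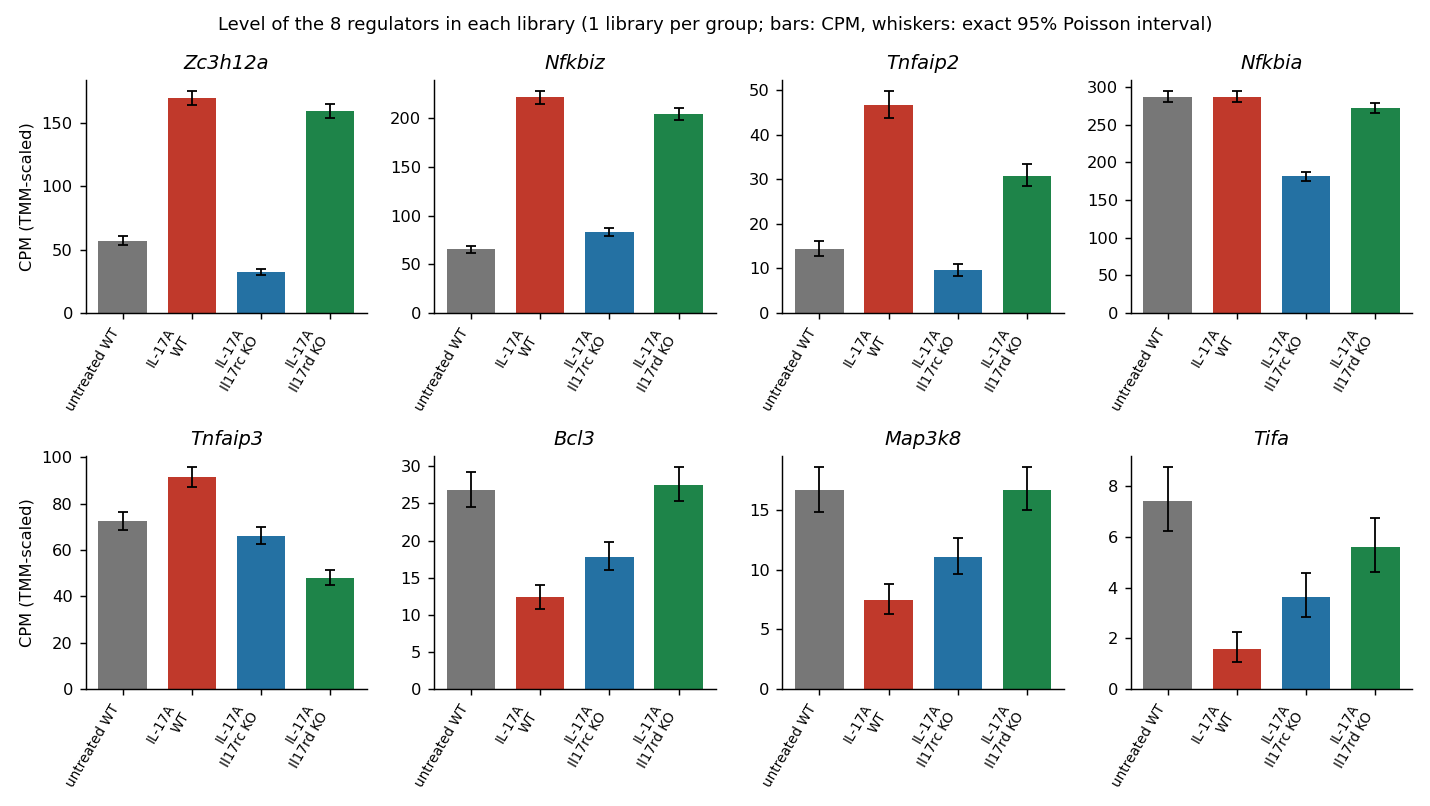
Level of each of the 8 regulators in the 4 libraries, as CPM on a linear axis that starts at 0. Bars are single libraries and whiskers are exact 95% Poisson intervals; Zc3h12a, Nfkbiz and Tnfaip2 are highest in IL-17A WT, and Tifa, Bcl3 and Map3k8 are lowest there.

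Nfkbia and Tnfaip3, the textbook feedback inhibitors of NF-kB, were not called in any of the 6 pairs of libraries. Nfkbia had the most counts of the 8, with 5513, 5629, 3637 and 5592 counts, or 287.6, 287.6, 181 and 272 CPM. Its level was the same in untreated and treated WT to within counting error, at a ratio of 1.0 (0.964 to 1.04). The Il17rc KO library stood apart, 1.59-fold below treated WT (1.52 to 1.65) and 1.5-fold below the Il17rd KO library (1.44 to 1.57), while the Il17rd KO library was 1.06-fold below treated WT (1.02 to 1.10). The Il17rc KO library was thus the low one for a gene whose WT libraries could not be separated.

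Tnfaip3, which encodes A20, had 1390, 1787, 1324 and 987 counts, or 72.5, 91.3, 66.0 and 48.1 CPM. It was the only one of the 8 that was lowest in Il17rd KO cells. There it was 1.90-fold below treated WT (1.76 to 2.06), 1.51-fold below untreated WT (1.39 to 1.64) and 1.37-fold below the Il17rc KO library (1.26 to 1.49). With IL-17A it was 1.26-fold higher (1.17 to 1.35) in WT cells, and the Il17rc KO library was 1.10-fold below untreated WT (1.02 to 1.18). Each of these is under the size called.

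Bcl3, Map3k8 and Tifa ran the other way. All 3 were called lower in treated WT than in untreated WT and higher in Il17rd KO cells than in treated WT, with the Il17rc KO library in between. Bcl3, which encodes a nuclear IkB cofactor, had 513, 242, 357 and 565 counts, or 26.8, 12.4, 17.8 and 27.5 CPM. It was 2.16-fold lower (1.85 to 2.53) with IL-17A in WT cells and 2.22-fold higher (1.91 to 2.60) in Il17rd KO cells than in treated WT. The Il17rd KO and untreated WT libraries could not be separated, at a ratio of 1.03 (0.911 to 1.16). The Il17rc KO library was 1.44-fold above treated WT (1.22 to 1.70) and 1.5-fold below untreated WT (1.31 to 1.73).

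Map3k8 (chromosome 18, 4331327 to 4353015, minus strand) gave nearly the same ratios from a lower level, with 319, 146, 222 and 343 counts, or 16.6, 7.46, 11.1 and 16.7 CPM. It was 2.23-fold lower (1.83 to 2.73) with IL-17A in WT cells, 2.24-fold higher (1.84 to 2.74) in Il17rd KO cells than in treated WT, and 1.48-fold higher (1.20 to 1.84) in Il17rc KO cells. Il17rd KO and untreated WT again could not be separated, at 1.0 (0.859 to 1.17).

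Tifa, the rarest of the 8, had 142, 31, 73 and 115 counts, or 7.41, 1.58, 3.64 and 5.60 CPM. Its 4 libraries were spread widest of the 3, and no neighbouring pair in the order of levels had an interval that held 1. Tifa was 4.68-fold lower (3.15 to 7.14) with IL-17A in WT cells. Both knockout libraries were called higher than treated WT, Il17rc KO by 2.30-fold (1.49 to 3.62) and Il17rd KO by 3.53-fold (2.36 to 5.44). Both were also below untreated WT, Il17rc KO by 2.03-fold (1.52 to 2.74) and Il17rd KO by 1.32-fold (1.03 to 1.71). The call of Il17rc KO against untreated WT sits at the edge of the rule, and with library totals in place of TMM sizes it was lost, at a log2 ratio of -0.93.

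Suprabasal differentiation markers and collagen genes were lowest in treated WT, as these 3 genes were, and in bulk RNA fewer cells of a type cannot be told apart from less RNA per cell. Summed over 6 suprabasal keratinocyte markers, the level was 4539 CPM in untreated WT, 237 in treated WT, 1435 in Il17rc KO and 1923 in Il17rd KO. That is the order of Tifa, and 5 of the 6 markers, Krt1, Krt10, Dsg1a and Lor among them, were called lower with IL-17A in WT cells and higher in each knockout. Of 7 fibroblast markers 5 have rows, with sums of 214, 186, 142 and 176 CPM, of which Vim made up most. The collagen genes Col1a1, Col1a2 and Col3a1 had 27, 9 and 10 counts in treated WT and 50 to 247 in the other libraries. Pdgfra had 152, 48, 75 and 71. The part of either in the levels of Bcl3, Map3k8 and Tifa was not tested.

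**Figure D2:**
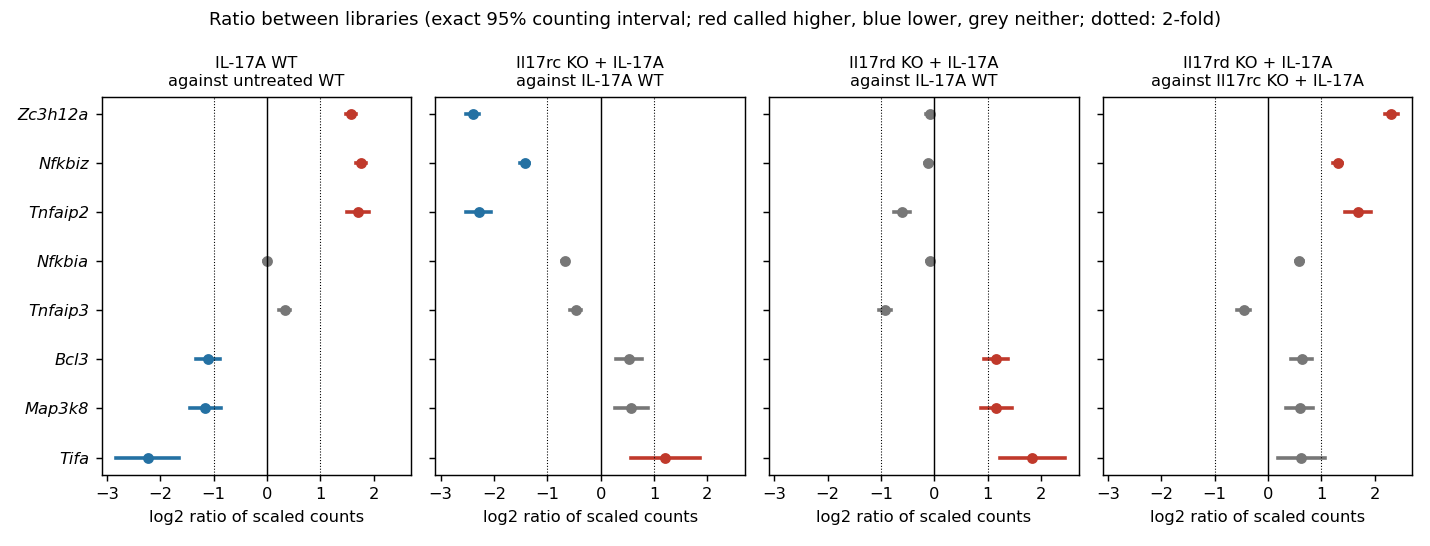
Log2 ratio of scaled counts for each regulator in 4 comparisons, with exact 95% counting intervals as bars and dotted lines at 2-fold. Red points were called higher, blue lower and grey neither; Zc3h12a, Nfkbiz and Tnfaip2 are called lower against IL-17A WT in Il17rc KO and not in Il17rd KO, and Tifa, Bcl3 and Map3k8 are called higher in Il17rd KO.

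Counted by comparison, 6 of the 8 regulators were called between treated WT and untreated WT, 3 higher and 3 lower, where 19.7% of all genes tested were called, 8.97% higher and 10.7% lower. For Il17rc KO cells 4 were called against treated WT, 1 higher and 3 lower, beside 11.1% of all genes, 6.22% higher and 4.84% lower. For Il17rd KO cells, 3 were called higher and 0 lower, beside 10.0% of all genes, 6.27% higher and 3.73% lower. Against untreated WT, Tifa was the 1 regulator called in Il17rc KO cells, lower, beside 14.3% of all genes, 7.27% higher and 7.0% lower. Zc3h12a, Nfkbiz and Tnfaip2 were the 3 called in Il17rd KO cells, higher, beside 8.71%, 5.36% higher and 3.35% lower. The median log2 ratio of the 8 was 0.17 for IL-17A in WT cells, -0.57 for Il17rc KO and -0.08 for Il17rd KO against treated WT, with medians over all genes of 0.00, 0.04 and 0.01. The 8 differed in opposite directions, so these medians describe no member. Both knockout comparisons use the same treated WT library, as does the WT comparison, so a chance deviation of that library would enter all 3.

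The knockouts were also compared directly, which leaves both WT libraries out. The question is whether cells lacking either receptor chain differ from each other under the same cytokine. Zc3h12a was 4.95-fold higher (4.55 to 5.39), Tnfaip2 3.22-fold higher (2.73 to 3.80) and Nfkbiz 2.48-fold higher (2.34 to 2.62) in Il17rd KO than in Il17rc KO cells. These were the 3 of 8 called, against 4.24% of all genes, 2.75% higher and 1.49% lower. Nfkbia, Tifa, Bcl3 and Map3k8 were higher by 1.5-fold to 1.55-fold, with intervals above 1 but under the size called, and Tnfaip3 was the 1 regulator with an interval below 1. The median log2 ratio of the 8 was 0.62, where that of all genes was -0.02.

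This comparison and that of the WT libraries have no library in common, so a gene's values in them are separate counts. Zc3h12a, Nfkbiz and Tnfaip2 are 3 of the 80 genes called higher in both, which are 0.619% of the genes tested and 6.90% of those called higher in treated WT. Sex-linked transcripts differed in the same direction in each comparison. Xist was 126 CPM in untreated WT, 243 in treated WT, 133 in Il17rc KO and 414 in Il17rd KO. Ddx3y was 34.1, 11.9, 37.4 and 0.0974 CPM in the same order. The part of sex in the shared calls was not tested. Another 80 genes higher in treated WT were called lower in Il17rd KO than in Il17rc KO cells. Of the genes lower in treated WT, 113 (8.16%) were called higher in Il17rd KO than in Il17rc KO cells and 50 (3.61%) lower. Bcl3, Map3k8 and Tifa are among the 1221 (88.2%) called neither.

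**Figure D3:**
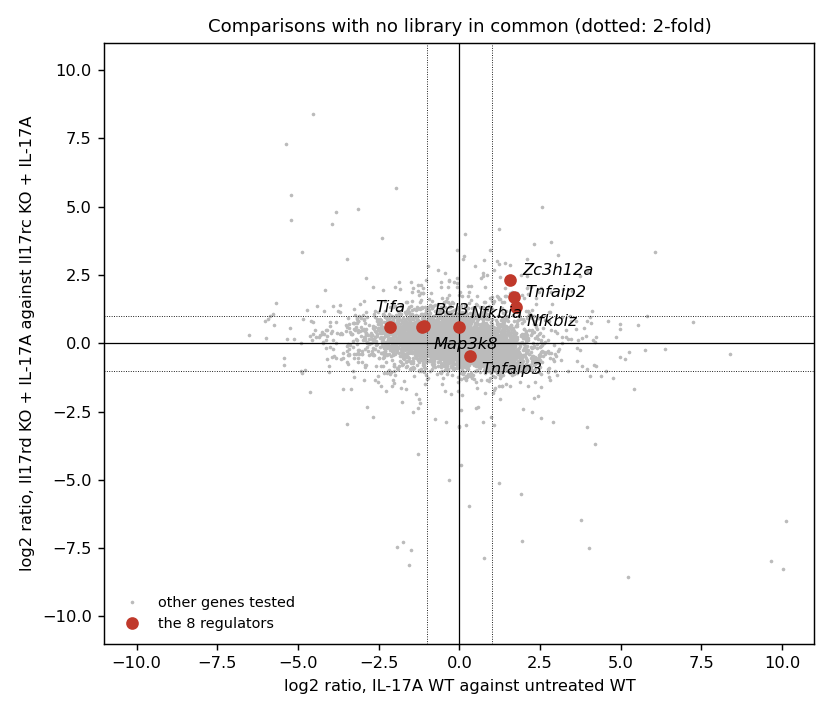
Each point is a gene tested. The x axis is the log2 ratio of IL-17A WT to untreated WT and the y axis that of the Il17rd KO to the Il17rc KO library, both with a prior count of 2; Zc3h12a, Tnfaip2 and Nfkbiz lie above 2-fold on both axes, and Tnfaip3 is the 1 regulator below 0 on the y axis.

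Levels of different genes can be compared only per length, for which the authors' deposited FPKM values serve. Nfkbia led in every library, at 178, 178, 112 and 169 FPKM. In untreated WT it was followed by Zc3h12a at 19.8, Nfkbiz at 13.0, Bcl3 at 10.8 and Tnfaip3 at 10.0 FPKM, and then by Map3k8 at 3.69, Tnfaip2 at 2.87 and Tifa at 2.31. In treated WT, Zc3h12a at 58.8 and Nfkbiz at 44.1 FPKM had moved away from Tnfaip3 at 12.6, and Tnfaip2 at 9.35 had passed Bcl3 at 4.99 and Map3k8 at 1.65, with Tifa last at 0.494. The Il17rd KO library kept Zc3h12a at 55.2 and Nfkbiz at 40.8 FPKM while Bcl3, at 11.1, stood above Tnfaip3, at 6.64. In the Il17rc KO library Nfkbiz, at 16.5 FPKM, stood above Zc3h12a, at 11.2, the reverse of the other 3 libraries.

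For each regulator the genes with the most similar profile were taken as those at the smallest distance over its 3 log2 ratios to untreated WT, among the 10019 named genes whose mean reached 5 CPM. The profile rests on 4 libraries. The nearest gene to Zc3h12a was Fbln2, an extracellular matrix gene, at a distance of 0.59, with 2411, 5593, 1648 and 5504 counts. Zdbf2, at 0.22, was nearest to Tnfaip2, with 151, 500, 102 and 299 counts, and was next after Fbln2 for Zc3h12a, at 0.65. Igfbp3, a binding protein of insulin-like growth factors, was among the nearest 3 for both, at 0.69 and 0.48. Frk, a kinase gene, was nearest to Nfkbiz at 0.41, followed by Gk and Col8a1, both at 0.44. Slitrk6, at 0.47, was the remaining gene of the nearest 3 for Tnfaip2. Maff, a small MAF transcription factor gene, was nearest to Tnfaip3 at 0.12, with 357, 497, 344 and 251 counts, ahead of Kctd11 and Pglyrp3, both at 0.16. Genes closer than 0.1 were found only for Nfkbia, with Nipsnap1 at 0.06 and P2rx4 at 0.08, and for Tifa, with Plbd1 at 0.08. Sumf1 at 0.11 came next for Nfkbia, and Lancl1 at 0.20 and Fam69a at 0.21 for Tifa. Bcl3 and Map3k8 shared Mr1 and Ypel2 among their nearest 3, at 0.13 to 0.15, beside Slc15a1 at 0.15 for Bcl3 and Bcl11a at 0.14 for Map3k8. Zc3h12a had the most distant nearest gene of the 8.

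The genes that act around these regulators were counted by list, beside shares of all genes called of 19.7% in the WT comparison, 11.1% in Il17rc KO and 10.0% in Il17rd KO against treated WT, and 4.24% between the knockouts. A count of 0 in a list of 3 to 5 genes is near those shares. Of the 5 NF-kB subunit genes none was called in any of these 4 comparisons, where log2 ratios ran from -0.71 for Rela with IL-17A in WT cells to 0.53 for Nfkb2 in Il17rc KO cells against treated WT. Their median was -0.20 in the WT comparison, 0.42 in Il17rc KO and 0.16 in Il17rd KO against treated WT, and -0.26 between the knockouts. None of the other 3 IkB genes was called either. Nfkbid, another nuclear IkB, had 50, 67, 38 and 72 counts. Its Il17rc KO library was the lowest, as for Zc3h12a, at a log2 ratio of -0.82 to treated WT. The intervals of Nfkbid in Il17rc KO (1.34 to 2.60 CPM) and untreated WT (1.94 to 3.44 CPM) overlapped. Among 16 measured partners of A20 and other ubiquitin editors 0 were called, with log2 ratios between -0.79 for Tnip2 and 0.49 for Spata2 and Birc3. None of 5 MEK, ERK and related kinase genes downstream of Map3k8, and none of 5 relatives and partners of Tnfaip2, was called in these 4 comparisons.

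Of 23 measured kinases and adaptors upstream of NF-kB, 1 was called in the WT comparison, 1 in each knockout against treated WT and 0 between the knockouts, beside 19.7%, 11.1%, 10.0% and 4.24% of all genes. Ikbke, which encodes IKK-epsilon, had 1000, 2035, 859 and 1118 counts. It was 1.99-fold higher (1.85 to 2.15) with IL-17A in WT cells, just under the size called, and 2.43-fold lower (2.24 to 2.63) in Il17rc KO and 1.91-fold lower (1.78 to 2.06) in Il17rd KO cells than in treated WT. Both knockouts thus lay near untreated WT, where Zc3h12a in Il17rd KO cells did not. Traf5, a TRAF adaptor gene at 19 to 43 counts, was called lower in treated WT and higher in Il17rd KO cells. Of 9 other regulators known as IL-17 targets, 0 were called in WT cells, 3 in Il17rc KO and 1 in Il17rd KO cells against treated WT, the last near the 10.0% of all genes. Ier3, an early response gene, was 2.76-fold lower (2.65 to 2.88) without Il17rc and 2.04-fold lower (1.97 to 2.12) without Il17rd. Atf3, a stress-induced transcription factor gene, was 2.88-fold higher (2.47 to 3.36) in Il17rc KO cells, and Irf1 was 2.34-fold lower (1.96 to 2.79).

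**Figure D4:**
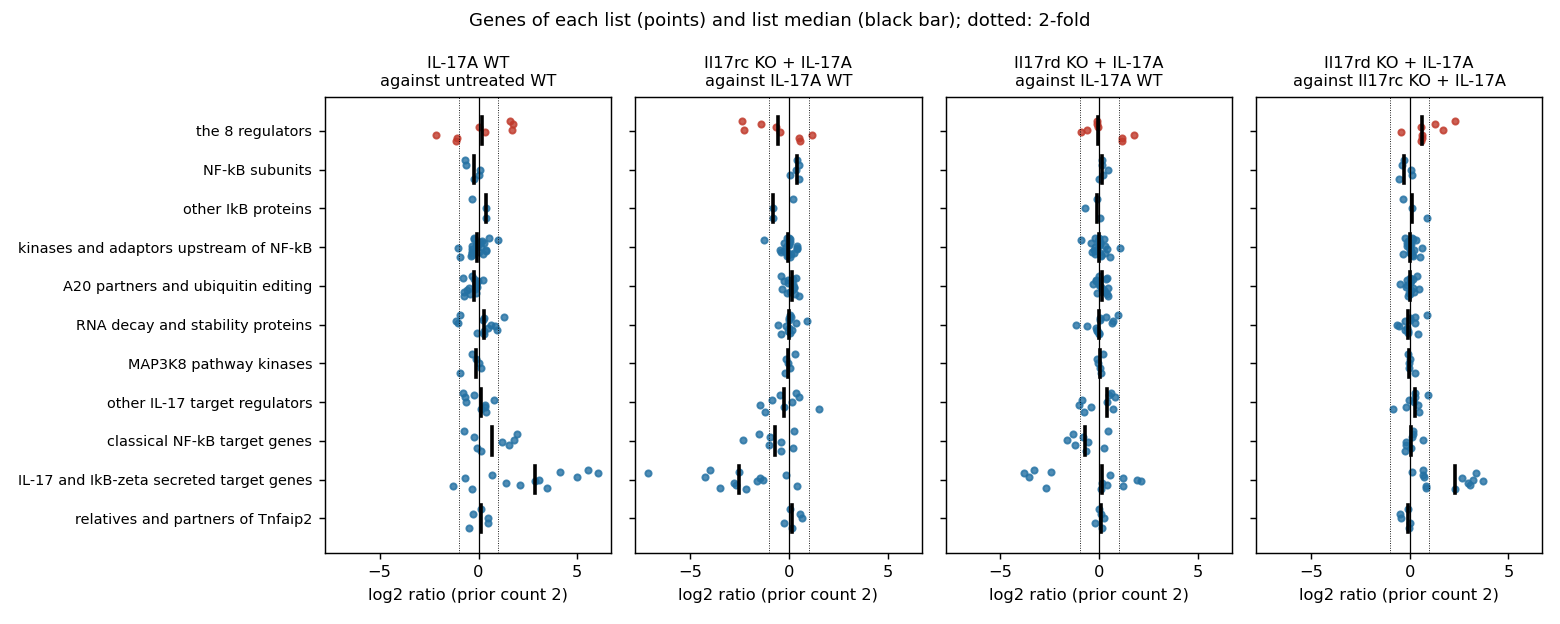
Log2 ratios (prior count 2) of the genes of each list in 4 comparisons, 1 point per gene, with the list median as a black bar and dotted lines at 2-fold. Subunits, kinases and partners lie mostly within 2-fold, while the secreted targets spread from -7.12 to 6.06.

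Effector genes that NF-kB and IkB-zeta are known to control showed separate patterns beside these regulators. Of 8 measured classical NF-kB targets, 4 were called higher with IL-17A in WT cells, and 3 of them, Cxcl10, Tnf and Cflar, were called lower in each knockout library than in treated WT. Over all genes, 8.97% were called higher with IL-17A, and 4.84% and 3.73% lower in Il17rc KO and Il17rd KO. The remaining one, Ptgs2, which encodes an inducible cyclooxygenase, had 3688, 8630, 6770 and 6166 counts. Tnf, the tumour necrosis factor gene, had 319, 1120, 230 and 382 counts, and Cflar, which encodes an inhibitor of caspase 8, had 701, 2125, 1075 and 959. Unlike Zc3h12a and Nfkbiz, both were near their untreated level in Il17rd KO cells, with Tnf 1.12-fold above it (0.961 to 1.30) and Cflar 1.28-fold (1.16 to 1.41). The median log2 ratio of the 8 targets was 0.66 for IL-17A in WT cells, and -0.68 for Il17rc KO and -0.74 for Il17rd KO against treated WT.

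Of 13 measured secreted targets of IL-17A and IkB-zeta, 9 were called higher and 1 lower with IL-17A in WT cells, where 8.97% and 10.7% of all genes were. In Il17rc KO cells 11 were called lower than in treated WT and 0 higher, beside 4.84% and 6.22% of all genes. For Il17rd KO cells, 5 were called lower and 4 higher, beside 3.73% and 6.27%. The 5 lower genes were Cxcl1, Cxcl2, Cxcl5, Csf3 and Il23a, of which Cxcl2, a neutrophil chemokine gene, had 22, 426, 73 and 82 counts. Il23a, a subunit of interleukin-23, had 17, 209, 17 and 32. The 4 higher were S100a8, S100a9, Lcn2 and Il1f9, of which Lcn2, an iron-binding antimicrobial protein gene, had 85, 54, 19 and 135 counts. S100a7a and Il1f6, an interleukin-36 gene, were not called between Il17rd KO and treated WT, with 23, 66, 8 and 76 counts and with 38, 171, 26 and 240. These 2 genes shared the calls of Zc3h12a, Nfkbiz and Tnfaip2, called higher with IL-17A in WT cells, called lower without Il17rc and not called without Il17rd. Between the knockouts 7 of the 13 were called higher in Il17rd KO and 0 lower, beside 2.75% and 1.49% of all genes. The median of the 13 was 2.85 for IL-17A in WT cells, -2.55 for Il17rc KO and 0.13 for Il17rd KO against treated WT, and 2.29 between the knockouts.

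**Figure D5:**
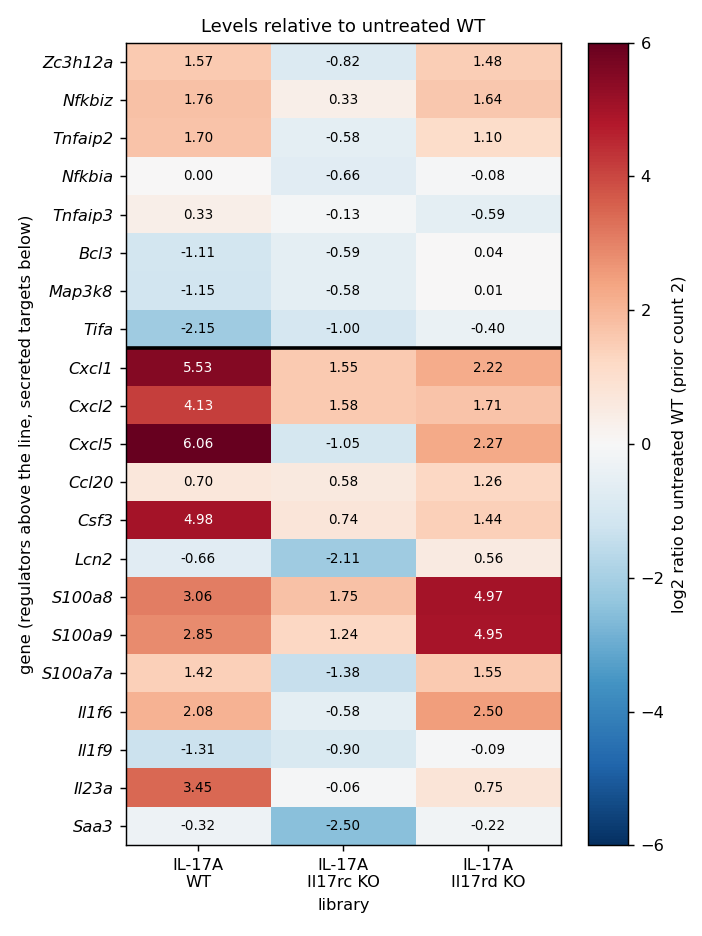
Log2 ratio to untreated WT (prior count 2; red higher, blue lower) of the 8 regulators and of 13 secreted target genes in the 3 libraries given IL-17A. Zc3h12a, Nfkbiz and Tnfaip2 are high in IL-17A WT and Il17rd KO, as are S100a7a and Il1f6, while Cxcl1, Cxcl2, Cxcl5, Csf3 and Il23a are highest in IL-17A WT.

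Markers of other cells also differed between the libraries. Of 10 immune cell markers, 4 have rows, Csf1r, Lyz2, Laptm5 and H2-Eb1, with sums of 52.9, 24.5, 6.58 and 23.0 CPM. The sum, most of it Lyz2, was lowest in Il17rc KO cells, where Zc3h12a, Tnfaip2 and Nfkbia were lowest too, but highest in untreated WT, where Zc3h12a and Tnfaip2 were not. H2-Eb1, with 28, 10, 41 and 47 counts, had another order and was lowest in treated WT, as Bcl3, Map3k8 and Tifa were. Ptprc, Cd3e, Itgam, Adgre1, Cd207 and Tyrobp have no row in the tables and were not analysed here. Melanocyte markers, 6 of 6 with rows, summed to 2374, 1552, 1959 and 2135 CPM, the order of Tifa, and Pmel was the 1 called, lower with IL-17A in WT cells. The 2 of 4 endothelial markers with rows, Pecam1 and Kdr, summed to 10.4, 17.6, 7.88 and 10.5 CPM, highest in treated WT and lowest in Il17rc KO, as Zc3h12a and Tnfaip2 were. Kdr, with 86, 183, 67 and 76 counts, was called higher with IL-17A in WT cells and lower in each knockout than in treated WT. No marker with a row was at 0 in any library. The part of these cells in the levels of the 8 regulators was not tested.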

How the data were processed

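RNA-seq of 4 mouse keratinocyte libraries was analysed, 1 per group, so libraries were compared without a test. The authors deposited raw read counts by gene. The deposited FPKM values imply library sizes in the ratios of the TMM-scaled sizes computed here. The submitters' processing notes name build mm10 and list Trim Galore 0.4.4 beside HISAT2, featureCounts (Subread) and edgeR. The sources used here give neither their settings nor the annotation or strand mode. All 13102 genes pass 1 CPM in 2 or more libraries, and 17 symbols that read as dates were counted but not named.

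TMM factors (edgeR 4.0.16) scaled the library sizes. Ratios carry exact 95% conditional binomial (Clopper-Pearson) intervals and levels exact Poisson intervals (scipy 1.17.1). Neither covers more than counting error. Reads lacking molecular identifiers need not come from separate molecules, so the intervals may be too narrow even for that. A prior count of 2 enters each log2 ratio. The call rule was run on counts simulated with counting error only, which cannot show how it behaves over replicates. Near-identical copies were sought with BLAST+ 2.17.0. GENCODE M21 holds the symbols of 12853 of the 13102 rows. The members, gene lists and call rule were chosen with earlier results of these data known. Named are all 8 regulators, Il17rc and Il17rd, up to 4 called genes of each list by size of log2 ratio, and the 3 genes nearest in profile to each regulator. Other genes were named after their values were seen. They include Ddx3y, Xist, the further secreted targets, Ap1ar, Malt1 and the uncalled genes that mark the ends of a range. Alternatives were 4 other scalings (DESeq2 1.42.0 size factors among them), another prior count, other fold thresholds and no filter.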

Additional observations from a re-analysis of the deposited data

How the results depend on the processing

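Under 4 other scalings no called regulator changed direction, and the 1 call lost was that of Tifa in Il17rc KO against untreated WT, where library totals left 0 regulators called in place of 1. Of the 240 recomputed log2 ratios of single regulators, 232 stayed within their counting interval. The deposited FPKM rest on the same library sizes as TMM, so their ratios could not differ and are left out of these counts. Library totals moved the median of all genes by 0.11 (log2) in Il17rd KO against untreated WT. Among the uncalled ratios, Nfkbia and Map3k8 changed sign or reached 0 under some scalings. The fold threshold moved the counts most. At 3-fold, 3 regulators were called in the WT comparison, 2 in Il17rc KO and 1 in Il17rd KO against treated WT, and 0 in Il17rc KO and 1 in Il17rd KO against untreated WT. At 1.5-fold, 5 were called in Il17rd KO against treated WT, 7 between the knockouts and 5 in Il17rc KO against untreated WT. The share of all genes called at these other thresholds was not computed, so these counts have no background beside them. A 2-fold rule on log2 ratios with the prior count, chosen after seeing the data, left every regulator count as it was. No paired analysis was possible because each group has 1 library and the labels carry no replicate numbers. Leaving out a replicate was likewise not possible. At 31 to 142 counts, Tifa has the widest intervals of the 8.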

Other observations

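Genes that act beside Zc3h12a on messenger RNA stability had several profiles. Of 13 measured genes of RNA decay and stability proteins, 1 was called higher and 2 lower with IL-17A in WT cells, near the 19.7% of all genes called. In Il17rc KO against treated WT 0 were called, and in Il17rd KO 1 was called higher and 1 lower, beside 11.1% and 10.0% of all genes. Malt1, whose protease is known to cut Regnase-1, had 379, 477, 369 and 501 counts, or 19.8, 24.4, 18.4 and 24.4 CPM. It was higher in treated WT and Il17rd KO than in the other libraries, as Zc3h12a was, but was not called. Its intervals in Il17rc KO (16.6 to 20.4 CPM) and untreated WT (17.8 to 21.9 CPM) overlapped. Zc3h12c, a relative of Zc3h12a, had 327 counts in untreated WT, 810 in treated WT, 887 in Il17rc KO and 1089 in Il17rd KO. It was 2.43-fold higher (2.13 to 2.77) with IL-17A in WT cells, as Zc3h12a was, but it was also 2.59-fold above untreated WT (2.28 to 2.95) in Il17rc KO cells, where Zc3h12a was at its lowest. Zfp36 and Zfp36l1, whose proteins bind AU-rich elements and promote decay, were 2.24-fold (2.10 to 2.38) and 2.06-fold (1.94 to 2.19) lower with IL-17A in WT cells. Zfp36l2, of the same family, was 2.25-fold lower (2.14 to 2.36) in Il17rd KO cells than in treated WT. It had 2441 counts there against 3328 to 5232 in the other libraries, and so, like Tnfaip3, was lowest without Il17rd.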
